A study of Mus musculus with 20 samples.

Results

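The effect of the March1-/- genotype on RNA was compared between splenic type 1 conventional dendritic cells (cDC1) and splenic B cells, as the genotype effect in cDC1 minus the genotype effect in B cells. The 4 groups were WT cDC1, March1-/- cDC1, WT B cells and March1-/- B cells, with 4 libraries each, 16 of the 20 libraries of the series. All mice carried the C57BL/6 strain label and were on postnatal day 21. The cells were sorted by flow cytometry, and the series concerns marginal zone B cells that take membrane from dendritic cells and display complement C3 with MHC class II. Genes were chosen by 1 criterion: genes whose mean level in WT B cells was at least 16 times that in WT cDC1 were set aside, since a small amount of B cell RNA in a cDC1 library can move them. This kept 17893 of the 18710 genes tested and set aside 817.

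The product of March1, MARCH1, is a ubiquitin ligase of antigen-presenting cells that sits in membranes and sends surface MHC class II and CD86 to lysosomes. cDC1 cross-present antigen to CD8 T cells and migrate to T cell zones when they mature. Marginal zone B cells are the splenic B cells that meet blood-borne antigen and bind complement-coated material through complement receptors. How many mice a library held, and which part of March1 the allele lacks, are not given in the sources used here. A count over the whole March1 gene therefore checks nothing about the genotype, and March1-/- means the libraries labelled so.

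Levels are in CPM, the usual depth-scaled count, relative to TMM-scaled library sizes, and are given as mean ± SD over n = 4 libraries, with single libraries in ascending order. Log2 values are given ± SE. A gene was called at an edgeR quasi-likelihood adjusted p under 0.05, adjusted with the Benjamini-Hochberg method over all 18710 genes. Since nothing says that libraries came from separate mice, p-values measure only the spread between libraries, and that spread may be technical. Total counts were 22789679 to 32751804 per library, so that 3 counts were worth 0.0916 to 0.133 CPM. Within a group, the median absolute log2 difference between any 2 libraries was 0.057 to 0.129 over genes of at least 10 CPM.

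The cell type labels were checked against marker genes. The summed level of 14 cDC1 markers was 12347 to 14841 CPM in the cDC1 libraries and 1109 to 1355 CPM in the B cell libraries. Clec9a, a cDC1 receptor for dead cells, was at 841 CPM on average in WT cDC1 and 2.18 CPM in WT B cells. Of the 14 cDC1 markers, only Itgae was called between the genotypes within cDC1. Itgae averaged 33.9 CPM with the March1-/- genotype against 104.9 CPM with the WT genotype. This was a log2 fold change of -1.63 ± 0.15 (edgeR adjusted p = 9.15e-07), and its interaction was not called (edgeR adjusted p = 0.452). The summed level of 15 B cell markers in cDC1 libraries was 316 to 369 CPM in WT and 400.4 to 486 CPM in March1-/-, with no overlap. No member of the macrophage, neutrophil, NK cell, T cell or erythroid marker lists was called in the interaction. Of 8 markers of type 2 conventional dendritic cells (cDC2), Cd209a and Irf4 were called in the interaction, against 2.36% of all genes. Irf4 and Mgl2 of these 8 cDC2 markers rose in March1-/- cDC1, against 1.53% of all genes. Their summed level was 341.4 to 453.3 CPM in WT cDC1 and 346.5 to 405.6 CPM in March1-/- cDC1, with overlap. Cd209a, which encodes a C-type lectin, was at 32.2 to 47 CPM in WT cDC1 and 45.4 to 69.9 CPM in March1-/- cDC1, and its means in B cells were 2.66 and 1.42 CPM. Its interaction difference was 1.48 ± 0.34 (edgeR adjusted p = 0.0204), a call lost in 4 of the 16 fits that left out 1 library, and neither cell type's own contrast was called. In every library RNA of both the X-inactivation gene Xist and Y-linked genes was present.

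Over all 18710 genes there were 441 interaction calls (2.36%), 278 with a cDC1 effect above the B cell effect (1.49%) and 163 below it (0.871%). Of the 17893 kept genes, 374 (2.09%) were called in the interaction, 212 (1.18%) with a cDC1 effect above the B cell effect and 162 (0.905%) below it. The interaction calls with the library number as a block within genotype came to 871, 526 above and 345 below, among them 372 of the 374. Of the others, 67 of the 817 genes set aside (8.2%) were called. Among the 10612 kept genes at 5 CPM or more in both cell types, 254 (2.39%) were called. The median interaction difference over all genes tested was 0.01 on the log2 scale. Within cDC1, 437 kept genes (2.44%) differed between genotypes, 198 higher (1.11%) and 239 lower (1.34%) in March1-/-. Over all genes tested this was 536 (2.86%), 286 higher (1.53%) and 250 lower (1.34%). Within B cells, 753 kept genes (4.21%) differed, 368 higher (2.06%) and 385 lower (2.15%), and over all genes tested 890 (4.76%), 433 higher (2.31%) and 457 lower (2.44%). The libraries of the genotypes did not overlap for 8.07% of kept genes in cDC1 and for 10.8% in B cells, which is the background for each gene below described as without overlap.

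The called genes were sorted by the cell type in which the genotype contrast itself was called. There were 103 cDC1-restricted genes (0.576% of those kept), called in cDC1 and not in B cells, 47 higher and 56 lower in March1-/- cDC1. There were 201 B-cell-restricted genes (1.12%), 76 higher and 125 lower in March1-/- B cells. Opposite effects were found for 14 genes (0.0782%). Unequal effects in the same direction were found for 3, and 53 were called in the interaction alone. Another 82 genes (0.458%) had shared effects: called in both cell types with the same sign and not in the interaction, 37 higher and 45 lower in March1-/-. The sorting used the fit without a block, and a missed interaction call there does not show equal effects. The 95% interval of the difference lay within 1 log2 unit of 0 for 63 of the 82. In all, 99 kept genes were called in both cell types.

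**Figure D1:**
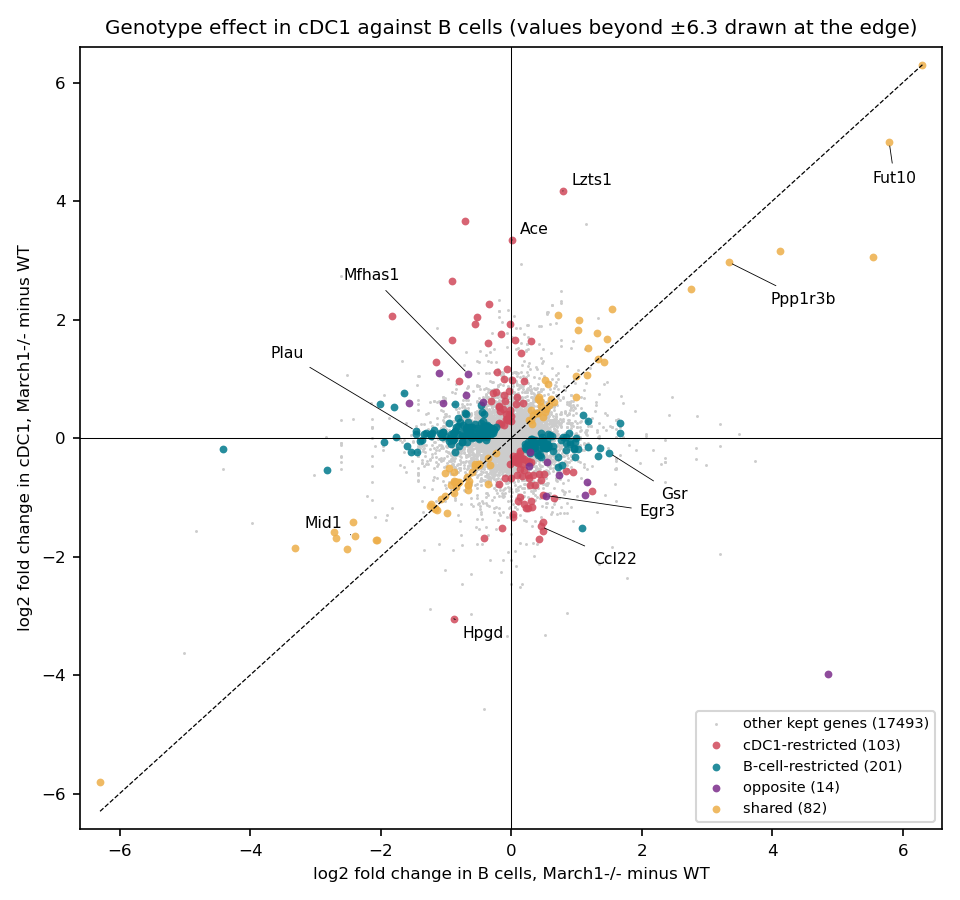
Log2 fold change of March1-/- against WT in B cells (horizontal) and in cDC1 (vertical) for the 17893 kept genes, 1 point each, with the dashed line marking equal effects. The 103 cDC1-restricted genes lie along the vertical axis, the 201 B-cell-restricted genes along the horizontal axis and the 82 shared genes along the dashed line. The opposite-effect point at the lower right is Gm3336, whose WT B cell mean of 0.00789 CPM lies under the level of 3 counts.

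March1 RNA was itself cDC1-restricted. Its level fell in cDC1, from 341 ± 27.3 to 263 ± 8.26 CPM, a log2 fold change of -0.38 ± 0.07. In B cells it was 147 ± 8.85 CPM in WT and 150.5 ± 15.2 CPM in March1-/-. The interaction difference was -0.41 ± 0.10 (edgeR adjusted p = 0.0323), and it missed the threshold in 11 of the 16 fits that left out 1 library (highest adjusted p = 0.0864).

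The genes that rose in March1-/- cDC1 and were not called in B cells were led by Lzts1 and Ace. Ace encodes angiotensin-converting enzyme, a membrane peptidase of the blood pressure system that also trims antigenic peptides. It was at 3.46, 3.53, 3.79 and 5.7 CPM in WT cDC1 and at 29.5, 39.4, 41.2 and 57.4 CPM in March1-/- cDC1. The lowest March1-/- library lay far above the highest WT library. In B cells the means were 0.615 and 0.62 CPM. The cDC1 log2 fold change was 3.34 ± 0.22 and the interaction difference 3.33 ± 0.47 (edgeR adjusted p = 0.000254). Lzts1, a leucine zipper gene named as a candidate tumour suppressor, lies 2.66 Mb downstream of March1 on chromosome 8 (69132669 to 69184225, minus strand, GRCm38). It was at 0.529, 0.553, 0.593 and 0.92 CPM in WT cDC1 and at 9.89, 11.6, 12.7 and 13.3 CPM in March1-/- cDC1, again with no overlap. Over the 8 B cell libraries it ranged from 0.145 to 0.551 CPM. Its interaction difference was 3.38 ± 0.40 (edgeR adjusted p = 3.13e-05).

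Notch3, a Notch family receptor, rose in cDC1 from 6.98 ± 1.5 to 17.0 ± 2.17 CPM, a log2 fold change of 1.28 ± 0.25. Its interaction difference of 2.44 ± 0.50 also holds a B cell change of -1.16 ± 0.44 at a low level (0.952 to 0.422 CPM), which was not called. Clu, which encodes the secreted chaperone clusterin, rose from 1.45 ± 0.499 to 5.53 ± 1.39 CPM (1.93 ± 0.39). Ddit4 encodes REDD1, an inhibitor of the growth kinase complex mTORC1. It was at 3.87, 5.1, 5.16 and 7.8 CPM in WT cDC1 and at 13.1, 13.2, 17 and 25.6 CPM in March1-/- cDC1. B cells expressed Ddit4 at 26.2 ± 5.8 CPM in WT and 27.2 ± 4.78 CPM in March1-/-, so the March1-/- cDC1 range reached that of B cells while the WT range lay below it. Library 1 held the highest Ddit4 level in each group of both cell types, at 31.7 CPM in WT and 32.8 CPM in March1-/- B cells. The interaction difference of Ddit4 was 1.60 ± 0.33. Camk2b, a subunit of calcium/calmodulin-dependent kinase II, rose from 2.13 ± 0.403 to 6.59 ± 0.838 CPM (1.32 ± 0.23). Among these 4 interactions the highest edgeR adjusted p was 0.0112.

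Ccl22 and Ccr7 were among the genes that fell in March1-/- cDC1 and were not called in B cells. Ccl22, a chemokine that attracts CCR4-bearing T cells, was at 50, 51.5, 55.8 and 58.7 CPM in WT cDC1 and at 15.5, 16.6, 20 and 24.8 CPM in March1-/- cDC1. Its B cell means were 2.73 ± 0.345 and 3.75 ± 1.21 CPM. The groups of cDC1 did not overlap, and the interaction difference was -1.94 ± 0.34 (edgeR adjusted p = 0.00271). Ccr7 encodes the receptor that guides dendritic cells and lymphocytes to T cell zones. It was at 103.6, 105.7, 110.7 and 159.5 CPM in WT cDC1 and at 43.6, 58.4, 59.9 and 85.5 CPM in March1-/- cDC1. Its B cell libraries were at 74.2, 77, 83.3 and 93.1 CPM in WT and at 92.6, 98.7, 131.4 and 137.8 CPM in March1-/-. The cDC1 groups did not overlap, the B cell groups did, and the B cell contrast was not called (edgeR adjusted p = 0.181). The interaction difference of Ccr7 was -1.45 ± 0.27 (edgeR adjusted p = 0.00546). The highest WT cDC1 library of Ccr7 was library 4, and without it the difference was -1.28. Of 13 chemokine receptor genes tested, 3 were called with an interaction difference above 0, against 1.49% of all genes: Cxcr3 and the set-aside genes Ackr2 and Cxcr5. Only Ccr7 was called below 0, against 0.871% of all genes.

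Hpgd, which encodes the enzyme that inactivates prostaglandins, fell furthest of the genes named by the rule. It was at 9.69, 13.1, 13.4 and 14.1 CPM in WT cDC1 and at 1.2, 1.5, 1.57 and 1.8 CPM in March1-/- cDC1. B cells held 1.61 ± 0.815 and 0.883 ± 0.308 CPM, the same direction at a low level and not called. Hpgd lies at -9.3 Mb from March1, where negative distances are upstream, and its interaction difference was -2.17 ± 0.40 (edgeR adjusted p = 0.00376). Eno2, an enolase isoform, fell from 8.23 ± 3.02 to 2.78 ± 0.761 CPM (interaction -2.06 ± 0.43, and -1.77 without WT cDC1 library 4). Cd63, a tetraspanin of late endosomes, fell from 14 ± 1.07 to 6.3 ± 1.8 CPM (-1.47 ± 0.30), with 11.0% of its 50-base windows found in other genes. Apol10b, of the apolipoprotein L family, fell from 22.3 ± 4.06 to 11.1 ± 1.94 CPM (-1.66 ± 0.32). Of these 3 the highest edgeR adjusted p was 0.00878.

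**Figure D2:**
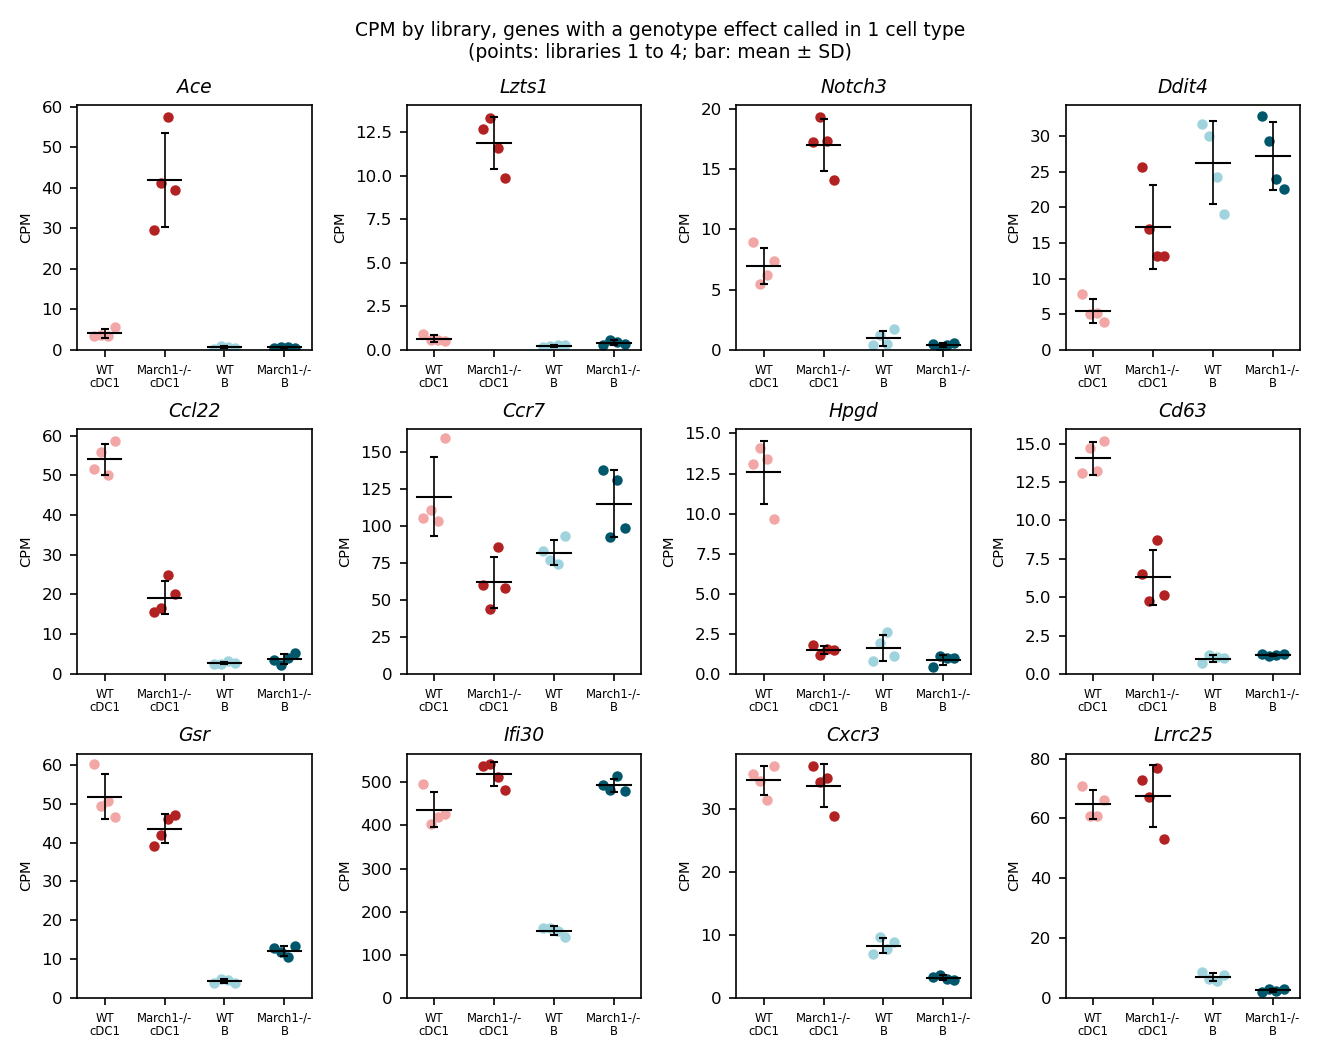
Level in CPM of 12 genes in each of the 16 libraries (points), with the mean and SD of each group (bars); the vertical axes start at 0. Ace, Lzts1, Notch3 and Ddit4 rise in March1-/- cDC1 and Ccl22, Ccr7, Hpgd and Cd63 fall there, with no overlap of the cDC1 groups. Gsr and Ifi30 rise and Cxcr3 and Lrrc25 fall in March1-/- B cells.

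Among the B-cell-restricted genes, the rise of Gsr had the largest interaction difference of those named by the rule. Gsr encodes glutathione reductase, which keeps glutathione in its reduced form. It was at 3.82, 3.83, 4.64 and 4.84 CPM in WT B cells and at 10.6, 11.7, 12.8 and 13.4 CPM in March1-/- B cells. In cDC1 it was at 51.7 ± 5.82 CPM in WT and 43.5 ± 3.76 CPM in March1-/-, so the March1-/- B cells remained well below cDC1. The B cell log2 fold change was 1.5 ± 0.11 and the interaction difference -1.75 ± 0.14 (edgeR adjusted p = 1.47e-07). Gsr lies at -31.92 Mb from March1 on chromosome 8.

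Ifi30 showed a rise of similar size at a higher level. It was named after its values were seen, since the annotation does not class it as protein coding and the naming rule passed over it. Ifi30 encodes GILT, the lysosomal thiol reductase that opens disulfide bonds of antigens for MHC class II presentation. It was at 141, 155.1, 162.6 and 162.9 CPM in WT B cells and at 480.9, 482.4, 494.5 and 514.9 CPM in March1-/- B cells. In cDC1 it was at 436.6 ± 40.8 CPM in WT and 518.8 ± 27.9 CPM in March1-/-, a contrast that was not called (edgeR adjusted p = 0.141). The March1-/- B cell libraries thus lay within the range of the cDC1 libraries. The interaction difference was -1.42 ± 0.12 (edgeR adjusted p = 1.67e-07). Ifi30 lies 4.29 Mb downstream of March1 (chromosome 8, 70762774 to 70766663, minus strand, GRCm38).

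The other genes named for a rise in March1-/- B cells lie on other chromosomes. Actn1, an actin cross-linker, rose from 20.7 ± 1.56 to 42.0 ± 12.0 CPM in B cells and was at 211 ± 27.4 and 186 ± 20.9 CPM in cDC1 (interaction -1.20 ± 0.22). Ndrg1, a gene induced by stress and differentiation, rose from 5.34 ± 0.723 to 10.5 ± 0.8 CPM (-1.29 ± 0.19). Pstpip2, an F-BAR adaptor of the cytoskeleton, rose from 4.74 ± 0.436 to 10.8 ± 3.98 CPM (-1.33 ± 0.25). Csrp2, a LIM domain gene, rose from 3.7 ± 0.301 to 6.11 ± 1.15 CPM (-1.04 ± 0.18). Pde2a, a phosphodiesterase of cyclic nucleotides, rose from 23.3 ± 4.2 to 41.7 ± 4.99 CPM (-1.04 ± 0.22), although 64.3% of its exon bases are shared with another annotated gene, so its value is uncertain. Across these 5 the highest edgeR adjusted p was 0.0111.

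Cxcr3, the receptor for interferon-induced chemokines, fell in March1-/- B cells and did not differ detectably in cDC1. It was at 7, 7.77, 8.81 and 9.62 CPM in WT B cells and at 2.88, 3.04, 3.28 and 3.68 CPM in March1-/- B cells. In cDC1 the means were 34.5 ± 2.28 and 33.7 ± 3.37 CPM, with overlapping libraries. The interaction difference was 1.33 ± 0.15, with a 95% interval of 1.02 to 1.63 (edgeR adjusted p = 1.49e-05). Lrrc25, a leucine-rich repeat gene 4.14 Mb downstream of March1, fell from 7.05 ± 1.31 to 2.57 ± 0.548 CPM in B cells and was at 64.7 ± 4.92 and 67.5 ± 10.4 CPM in cDC1 (interaction 1.52 ± 0.21). Plau, which encodes urokinase, fell from 2.21 ± 0.357 to 0.797 ± 0.351 CPM (1.58 ± 0.30). AW011738, whose role is not described here, fell from 16.8 ± 3.24 to 7.44 ± 2.04 CPM (1.31 ± 0.21). Entpd4 and Entpd4b, copies of a Golgi nucleotidase gene, each fell in B cells, from 60.1 ± 4.88 to 29.1 ± 1.95 CPM for Entpd4 (1.16 ± 0.14). All 50-base windows of both transcripts recur in other genes, so their counts cannot be told apart. The edgeR adjusted p of these 5 was at most 0.00362.

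The marginal zone B cell list was the list with the most interaction calls. Of its 17 tested genes 12 were called with a cDC1 effect above the B cell effect and none had one below it (1.49% and 0.871% of all genes), with a median difference of 0.76 against 0.01 over all genes. In B cells 11 of the 17 fell, against 2.44% of all genes, and the list's median change was -0.58 (log2) against -0.005 over all genes, and none rose. Of the 17, 7 were among the genes set aside, and 6 kept genes were called in the interaction: Asb2, Cd9, Sema7a, Dph5, Cd36 and Pik3r4. Each of these 6 fell in B cells and was not called in cDC1. In bulk RNA, fewer cells of a type and less RNA per cell cannot be told apart.

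Asb2, a ubiquitin ligase subunit, was at 27, 29.6, 41.6 and 44.8 CPM in WT B cells and at 14, 14.2, 18.1 and 21.3 CPM in March1-/- B cells, against 279 ± 18.1 and 290.5 ± 15.1 CPM in cDC1. Its interaction difference was 1.14 ± 0.20 (edgeR adjusted p = 0.00196). The tetraspanin gene Cd9 fell from 40.4 ± 5.34 to 26.1 ± 3.16 CPM in B cells (interaction 0.76 ± 0.12), with 10.7% of its exon bases shared with a gene on the opposite strand. Dph5, of diphthamide synthesis, fell from 87.2 ± 14 to 55.4 ± 7.58 CPM (0.71 ± 0.14). Pik3r4, a regulatory subunit of class III phosphoinositide 3-kinase, fell from 191 ± 18.6 to 135.5 ± 14.9 CPM (0.63 ± 0.11). The semaphorin gene Sema7a fell from 102 ± 17.4 to 56.4 ± 6.88 CPM (0.62 ± 0.15) and the scavenger receptor gene Cd36 from 226 ± 18.8 to 140.4 ± 27.0 CPM (0.62 ± 0.16). The edgeR adjusted p of these 5 interactions was at most 0.0374. The interaction calls of Sema7a and Cd36 were lost in 7 and 10 of the 16 fits that left out 1 library.

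In the same B cell contrast 4 of 7 immature B cell genes and 4 of 9 follicular B cell genes rose, against 2.31% of all genes. The others did not pass, among them Dntt (-0.83) and Cxcr5 (-0.19) below 0 on the log2 scale. Myb, a transcription factor of early B cells, rose from 34.1 ± 2.37 CPM in WT B cells to 66.4 ± 18.1 CPM in March1-/- B cells. It was at 26.3 ± 0.59 and 23.1 ± 1.87 CPM in cDC1, and its interaction difference of -1.15 ± 0.29 (edgeR adjusted p = 0.0446) was lost in 15 of the 16 fits that left out 1 library. Of 12 germinal centre and plasma cell genes, 3 were called in the interaction, all above 0, against 2.36% of all genes called; S1pr2 and Gcsam changed in B cells and Irf4 in cDC1. S1pr2, a receptor that holds B cells in germinal centres, fell from 7.15 ± 0.95 to 2.81 ± 1.5 CPM in B cells (interaction 1.40 ± 0.34), a call lost in 7 of the 16 such fits. Gcsam, a germinal centre signalling gene, fell from 4.69 ± 0.841 to 1.55 ± 0.903 CPM in B cells while cDC1 held 269 ± 19 and 246 ± 9.16 CPM (1.46 ± 0.26). Irf4, a transcription factor of plasma cell and dendritic cell differentiation, rose in cDC1 from 42.5 ± 8.96 to 60.8 ± 6.73 CPM (0.70 ± 0.15). The edgeR adjusted p of these 3 was at most 0.0276. The dendritic cell growth factor receptor gene Flt3 fell in B cells from 7.76 ± 1.99 to 4.04 ± 1.08 CPM (0.90 ± 0.20, edgeR adjusted p = 0.0165) and was at 790.4 ± 11.8 and 762.5 ± 17.5 CPM in cDC1. For Gcsam and Flt3, whose cDC1 level is far above that in B cells, the summed level of 854 genes high in cDC1 was 2.3% ± 0.21 of their cDC1 level in WT B cells and 2.55% ± 0.21 in March1-/- B cells, and its part in these 2 results was not tested.

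Of 16 genes of the interferon gamma response 6 fell in March1-/- cDC1, against 1.34% of all genes, and none was called in B cells. The median log2 change of the 16 was -0.25 in cDC1, against 0.01 over all genes, and -0.03 in B cells. Gbp3, Gbp7 and Iigp1 had values above 0 in cDC1 (0.15, 0.51 and 0.05) and were not called. Interferon gamma induces guanylate-binding proteins and immunity-related GTPases, in part through the transcription factor IRF1. The difference between the cell types was called for 2 of the 16, Gbp5 and Irf1, both below 0, against 0.871% of all genes. Gbp5, a guanylate-binding protein of inflammasome and anti-microbial defence, was at 25, 31.4, 32 and 32.2 CPM in WT cDC1 and at 16.5, 17, 17.4 and 25.2 CPM in March1-/- cDC1. The groups overlapped, since the highest March1-/- library lay above the lowest WT library. In B cells its means were 53.1 ± 4.5 and 52.6 ± 3.04 CPM. Irf1 was at 144.7, 152.5, 160.7 and 178.4 CPM in WT cDC1 and at 111.5, 120.6, 125.4 and 145.7 CPM in March1-/- cDC1, which overlap, and at 98.8 ± 3.96 and 111 ± 9.05 CPM in B cells. The interaction differences were -0.65 ± 0.16 for Gbp5 and -0.50 ± 0.12 for Irf1 (edgeR adjusted p = 0.0239 and 0.0276), and they were lost in 8 and 11 of the 16 fits that left out 1 library. Gbp2, Gbp4, Tgtp1 and Tgtp2 fell in cDC1 by 0.55 to 0.80 on the log2 scale and were not called in the interaction.

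The promoters shown are those of these 2 genes, the members of the interferon gamma list that were called in the interaction. They run from 250 bases before to 50 bases after the start, from RefSeq on GRCm38.p6, both on the plus strand, Irf1 (1 of 2 starts listed) at chr11:53769764-53770063 and Gbp5 at chr3:142496684-142496983. Capitals mark the STAT core TTCNNNGAA and the interferon-stimulated response element core (GAAA, any 2 bases, GAAA), each searched on both strands; no marked match overlaps another.
Irf1: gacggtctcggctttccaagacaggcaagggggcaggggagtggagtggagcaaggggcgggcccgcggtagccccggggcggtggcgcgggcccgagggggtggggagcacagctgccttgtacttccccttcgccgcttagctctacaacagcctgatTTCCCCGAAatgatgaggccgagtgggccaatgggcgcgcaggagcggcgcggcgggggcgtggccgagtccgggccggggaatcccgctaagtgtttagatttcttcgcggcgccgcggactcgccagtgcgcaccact
Gbp5: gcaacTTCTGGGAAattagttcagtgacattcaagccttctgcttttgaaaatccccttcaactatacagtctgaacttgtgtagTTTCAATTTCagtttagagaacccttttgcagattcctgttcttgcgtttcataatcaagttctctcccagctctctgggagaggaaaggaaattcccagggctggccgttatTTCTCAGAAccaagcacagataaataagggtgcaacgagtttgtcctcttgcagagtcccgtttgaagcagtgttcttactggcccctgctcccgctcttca
The Irf1 promoter held 1 STAT core, and the Gbp5 promoter held 2 STAT cores and 1 response element core, which reads TTTCAATTTC on this strand. Of the 32851 promoters in the table, 8.3% held a STAT core and 3.44% a response element core. A match is a description of these letters and not a measured binding site. Promoters of the list's other genes are not shown, and an excess of matches was not tested.

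Of 25 other interferon response genes, 2 were called in the interaction, both below 0, against 0.871% of all genes. In cDC1 2 fell, against 1.34% of all genes, and the median of this list was also -0.25. In B cells 1 rose and 2 fell, against 2.31% and 2.44% of all genes. Irf7, the transcription factor that amplifies interferon production, rose in B cells from 24.8 ± 2.66 to 30.7 ± 1.91 CPM and was at 115 ± 10.3 and 103 ± 8.05 CPM in cDC1 (interaction -0.47 ± 0.11, edgeR adjusted p = 0.0265). Ifi44, an interferon-induced gene, was called in the interaction alone (-0.95 ± 0.23, edgeR adjusted p = 0.0283). Both calls were lost in 7 of the 16 fits that left out 1 library.

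Of 15 glycolytic genes tested, 6 fell in March1-/- B cells, against 2.44% of all genes, with a median log2 change of -0.23 in B cells and 0.12 in cDC1. The median interaction difference was 0.34, and 4 of the 15 were called above 0, against 1.49% of all genes: Pkm, Pgk1, Gapdh and Eno1. Pkm, which encodes pyruvate kinase, was at 352.9, 354, 359.6 and 371.9 CPM in WT B cells and at 265.6, 280.8, 289.7 and 304.5 CPM in March1-/- B cells. In cDC1 it was at 359 ± 14.8 and 402 ± 41.1 CPM. The B cell groups did not overlap, and the interaction difference of Pkm was 0.50 ± 0.10 (edgeR adjusted p = 0.0076). Pgk1, which encodes phosphoglycerate kinase, fell in B cells from 187 ± 6.81 to 144 ± 6.72 CPM (interaction 0.54 ± 0.10, edgeR adjusted p = 0.00286). Gapdh (0.45 ± 0.11) and Eno1 (0.50 ± 0.13) were called in the interaction alone, at an edgeR adjusted p of at most 0.0446, and lost the call in 13 and 14 of the 16 fits that left out 1 library. Processed copies of these genes recur in the genome. Of the 50-base windows, 25.8% for Pkm, 53.9% for Pgk1, 24.7% for Gapdh and 26.0% for Eno1 are found in another annotated gene. In addition, 15.3% of the exon bases of Pkm overlap another gene.

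Of 19 cholesterol synthesis genes 10 fell in March1-/- cDC1, against 1.34% of all genes, and 2 (Idi1 and Mvd) fell in B cells, against 2.44%, with median log2 fold changes of -0.31 and -0.14, and the median difference was -0.22. Idi1, which encodes an isomerase of the pathway, fell from 42.9 to 25.2 CPM on average in cDC1 and from 35.7 to 28.1 CPM in B cells. No member was called in the interaction in the fit without a block (lowest edgeR adjusted p = 0.134, for Idi1). Calls with the library number as a block within genotype are not given for this list. No conclusion on a difference between the cell types is therefore drawn for it.

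The MHC class II genes, whose products MARCH1 acts on, gave 1 interaction call among 11 tested, below 0, against 0.871% of all genes. H2-Ob, a subunit of the DO inhibitor of peptide loading, rose in B cells from 631 ± 39.2 to 780.2 ± 27.5 CPM and was at 431.5 ± 26 and 402 ± 29.5 CPM in cDC1 (interaction -0.41 ± 0.09, edgeR adjusted p = 0.0177). For H2-Ab1, a chain of the class II molecule itself, the interval of the difference was -0.42 to 0.12 on the log2 scale. Cd86, the costimulatory target of MARCH1, fell in B cells from 51.2 to 39.6 CPM (log2 fold change -0.37 ± 0.07, edgeR adjusted p = 0.00326). It was at 402.5 and 372.5 CPM in cDC1, and the difference of 0.26 ± 0.10 was not called (edgeR adjusted p = 0.252). No MHC class I presentation gene was called in the interaction (14 tested).

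Of 8 plasmacytoid dendritic cell genes, 2 were called in the interaction, both kept and above 0, against 1.49% of all genes. Both were higher in March1-/- cDC1. Tcf4, the lineage factor of these cells, rose from 67.5 ± 7.5 to 92.6 ± 7.6 CPM (0.63 ± 0.13, edgeR adjusted p = 0.00687). Pacsin1, a membrane-bending protein, rose from 4.6 ± 1.61 to 10.4 ± 3.51 CPM (1.23 ± 0.29, edgeR adjusted p = 0.0256), a call lost in 7 of the 16 fits that left out 1 library. Both genes are also expressed in B cells, at 169 ± 11.8 and 23.5 ± 1.92 CPM in WT. The summed level of the B cell markers was higher in the same cDC1 libraries, as given above, and its part in these results was not tested.

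Mfhas1 and Acsl1 were the 2 genes with opposite effects named by the rule. Mfhas1 encodes a leucine-rich repeat protein of innate immune signalling and lies at -29.94 Mb from March1 (chromosome 8, 35587798 to 35679449, plus strand, GRCm38). It was at 14.4, 16.4, 16.4 and 16.7 CPM in WT cDC1 and at 31.2, 32.5, 35.6 and 35.6 CPM in March1-/- cDC1. B cell libraries were at 89.7, 92.8, 112.3 and 137 CPM in WT and at 63.4, 68, 69.5 and 71.9 CPM in March1-/-. The genotype groups did not overlap in either cell type, and the direction was reversed between them. The log2 fold changes were 1.08 ± 0.10 in cDC1 and -0.66 ± 0.10 in B cells, with an interaction difference of 1.74 ± 0.14 (edgeR adjusted p = 1.47e-07).

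Acsl1, which activates long-chain fatty acids to acyl-CoA, went the same way at -19.08 Mb from March1. It was at 28, 28, 28.4 and 28.8 CPM in WT cDC1 and at 42, 42.5, 43.6 and 43.9 CPM in March1-/- cDC1. The B cell levels were 17.3, 18.2, 18.7 and 19.5 CPM in WT and at 12.5, 13.3, 14.1 and 14.5 CPM in March1-/-. No groups overlapped, and the interaction difference was 1.04 ± 0.09 (edgeR adjusted p = 3.27e-07).

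Egr3, an immediate early transcription factor, moved in the other direction. It was at 29.5, 30.3, 32.1 and 52.6 CPM in WT cDC1 and at 15, 16.2, 17.2 and 25.3 CPM in March1-/- cDC1. Egr3 in B cells was at 84, 86.5, 99.9 and 100.4 CPM in WT and at 130.2, 132.5, 136.5 and 137.6 CPM in March1-/-. The groups did not overlap in either cell type. The interaction difference was -1.51 ± 0.22 (edgeR adjusted p = 0.000514), and -1.27 without WT cDC1 library 4, the highest. The B cell contrast of Egr3 was near the threshold (edgeR adjusted p = 0.0478) and held in 5 of the 16 fits that left out 1 library. Egr2, of the same family, fell in cDC1 from 16.4 ± 6.31 to 7.25 ± 2.69 CPM and was at 13.2 ± 1.65 and 15.4 ± 2.46 CPM in B cells (interaction -1.40 ± 0.35, edgeR adjusted p = 0.0378), a call lost in 11 of the 16 such fits. These were the 2 interaction calls among 16 immediate early genes, both below 0, against 0.871% of all genes. Of the 16, 3 fell in cDC1 (1.34% of all genes) and 1 rose in B cells (2.31%). The list's median interaction difference was -0.53. Its summed level ranged widely within a group, from 2927 to 5894 CPM in WT cDC1 and from 2424 to 4285 CPM in March1-/- cDC1.

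The remaining opposite effects were smaller or at low levels in at least 1 cell type. Of all 14 opposite genes, 8 fell in March1-/- cDC1 and rose in March1-/- B cells, and 6 did the reverse. Named after their values were seen, Icos, Il4i1 and Cdkn1a fell in March1-/- cDC1 and rose in March1-/- B cells. Icos encodes a costimulatory receptor, Il4i1 a secreted amino acid oxidase and Cdkn1a the cell cycle inhibitor p21. Il4i1 went from 96.6 to 69.8 CPM in cDC1 and from 93.5 to 112.4 CPM in B cells (interaction -0.74 ± 0.11). Of its exon bases 86.3% are shared with other genes, nearly all on the opposite strand, so its counts are uncertain, and its B cell call (edgeR adjusted p = 0.0442) held in 7 of the 16 fits that left out 1 library. Icos went from 21.5 to 14 CPM and from 1.02 to 1.68 CPM (-1.36 ± 0.22), and Cdkn1a from 24.3 to 14.6 CPM and from 0.841 to 1.88 CPM (-1.89 ± 0.26). The B cell groups of Icos overlapped, and its B cell call held in 12 of the 16 such fits. The summed level of 12 T cell markers, a cell type that uses Icos, in B cells was 74.3 to 93.8 CPM for WT and 101.5 to 134.1 CPM for March1-/-, without overlap, and its part in the result for Icos was not tested. The edgeR adjusted p of these 3 was at most 0.00109. Unequal effects in 1 direction were called for Lpar2, Micu3 and B3gnt3, all on chromosome 8. Lpar2, a receptor for lysophosphatidic acid, fell from 4.23 to 2.15 CPM in cDC1 and from 38.6 to 8.35 CPM in B cells (log2 fold changes -0.97 ± 0.14 and -2.21 ± 0.11, interaction 1.24 ± 0.18, edgeR adjusted p = 0.000233). Micu3, of mitochondrial calcium uptake, fell more in cDC1 (-1 ± 0.11) than in B cells (-0.38 ± 0.11), a difference called at an edgeR adjusted p of 0.037 and lost in 11 of the 16 fits that left out 1 library. B3gnt3, a glycosyltransferase, fell from 0.869 to 0.315 CPM in cDC1 and from 1.5 to 0.0934 CPM in B cells (edgeR adjusted p of the interaction = 0.0151). Its March1-/- B cell mean is near the level of 3 counts, so the size of the B cell fall is not given.

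**Figure D3:**
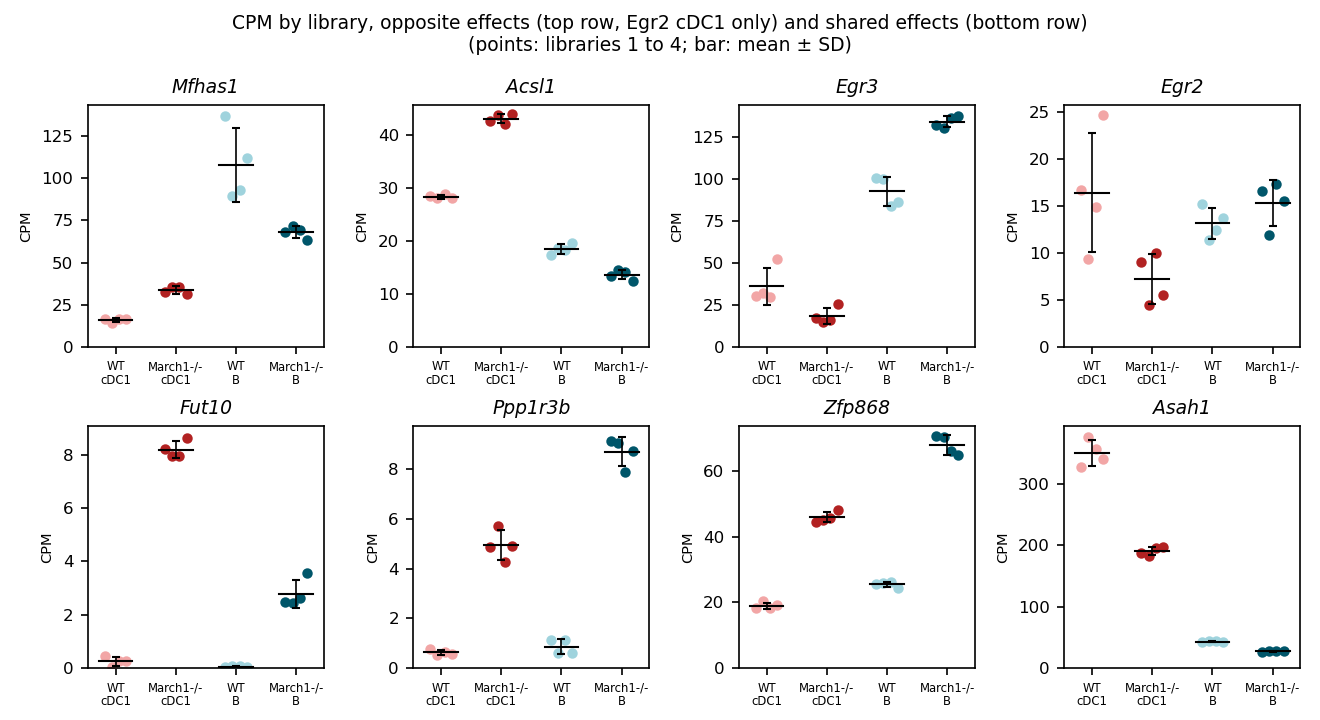
Level in CPM of 8 genes in each of the 16 libraries (points), with the mean and SD of each group (bars); the vertical axes start at 0. Mfhas1 and Acsl1 rise in March1-/- cDC1 and fall in March1-/- B cells, Egr3 does the reverse, and Egr2 falls in cDC1. Fut10, Ppp1r3b and Zfp868 rise and Asah1 falls in March1-/- libraries of both cell types.

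Shared effects were led by genes on chromosome 8. Fut10, a fucosyltransferase gene, was at 0.0395, 0.244, 0.277 and 0.442 CPM in WT cDC1 and at 7.96, 7.97, 8.24 and 8.64 CPM in March1-/- cDC1. In B cells it was at 0.029 to 0.0615 CPM in WT, under the level of 3 counts in each library, and at 2.43 to 3.56 CPM in March1-/-. The size of its fold in B cells is therefore not given, and the edgeR adjusted p was at most 2.66e-10 in each cell type. Ppp1r3b targets protein phosphatase 1 to glycogen. It was at 0.514, 0.57, 0.645 and 0.773 CPM in WT cDC1 and at 4.28, 4.88, 4.93 and 5.73 CPM in March1-/- cDC1. Its B cell levels were 0.6, 0.601, 1.11 and 1.13 CPM in WT and at 7.9, 8.76, 9.08 and 9.14 CPM in March1-/-. The log2 fold changes were 2.97 ± 0.19 and 3.33 ± 0.17, and the 95% interval of their difference was -0.91 to 0.19. Zfp868, a zinc finger gene 3.14 Mb downstream of March1, rose from 19.0 ± 0.939 to 45.9 ± 1.53 CPM in cDC1 and from 25.5 ± 0.76 to 68.1 ± 2.93 CPM in B cells (difference -0.30 to 0.02).

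Asah1, which encodes the lysosomal acid ceramidase, was the most abundant of the shared genes named by the rule. It was at 328.3, 341.4, 356.7 and 376.2 CPM in WT cDC1 and at 183.3, 188, 195.8 and 197.1 CPM in March1-/- cDC1. Asah1 in B cells was at 41.6, 41.8, 43.7 and 44.3 CPM in WT and at 25.4, 27.2, 27.6 and 28.3 CPM in March1-/-. No groups overlapped, and the log2 fold changes were -0.88 ± 0.06 and -0.66 ± 0.06 (edgeR adjusted p at most 1.38e-07). The interval of the difference, -0.38 to -0.05, left out 0 but the interaction was not called (edgeR adjusted p = 0.203). Haus8, a subunit of the augmin complex of the mitotic spindle, fell by 0.92 ± 0.07 and 0.88 ± 0.08 on the log2 scale in cDC1 and B cells, with an interval of the difference of -0.26 to 0.19. Tmem221, 5.08 Mb downstream of March1, fell in both as well (-1.22 ± 0.17 and -1.13 ± 0.24).

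Shared effects off chromosome 8 included Wdfy1, an endosomal adaptor of Toll-like receptor signalling. Wdfy1 rose from 24.3 ± 3.48 to 51.0 ± 3.72 CPM in cDC1 and from 29.5 ± 2.79 to 65.9 ± 9.47 CPM in B cells, with an interval of the difference of -0.45 to 0.26. Cnbd2, a cyclic nucleotide-binding gene, rose by 1.05 ± 0.15 and 0.99 ± 0.15 on the log2 scale, with 21.5% of its exon bases shared with a gene on the opposite strand. Ehf, an ETS family transcription factor, and Basp1, a membrane-bound signalling protein, fell in both (Ehf -1.26 ± 0.16 and -0.99 ± 0.22, Basp1 -0.59 ± 0.10 and -1.02 ± 0.14). The interval of the difference left out 0 for Basp1 (0.07 to 0.79), though the interaction was not called (edgeR adjusted p = 0.268). Wwc2, a scaffold of the Hippo pathway on chromosome 8, rose by 0.69 ± 0.15 and 0.99 ± 0.15. Mid1, a ubiquitin ligase gene that spans the pseudoautosomal boundary of the X in C57BL/6, fell from 25.7 ± 6.09 to 8.15 ± 0.811 CPM in cDC1 and from 30.4 ± 9.04 to 5.74 ± 1.25 CPM in B cells. For Mid1 too the interval, 0.10 to 1.38, left out 0 without an interaction call (edgeR adjusted p = 0.3). The edgeR adjusted p of these 6 genes was at most 0.00789 in each cell type. All 10 genes tested at this end of the X and Y had shared falls, and 15.0% of the 50-base windows of Mid1 are found in other genes, so these counts are uncertain. On chromosome 2, 14 of 47 tested genes in a window of zinc finger genes chosen after their values were seen had shared falls; 90.0% of the windows of Zfp966, a gene of that kind, recur in other genes, so these counts are uncertain too.

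**Figure D4:**
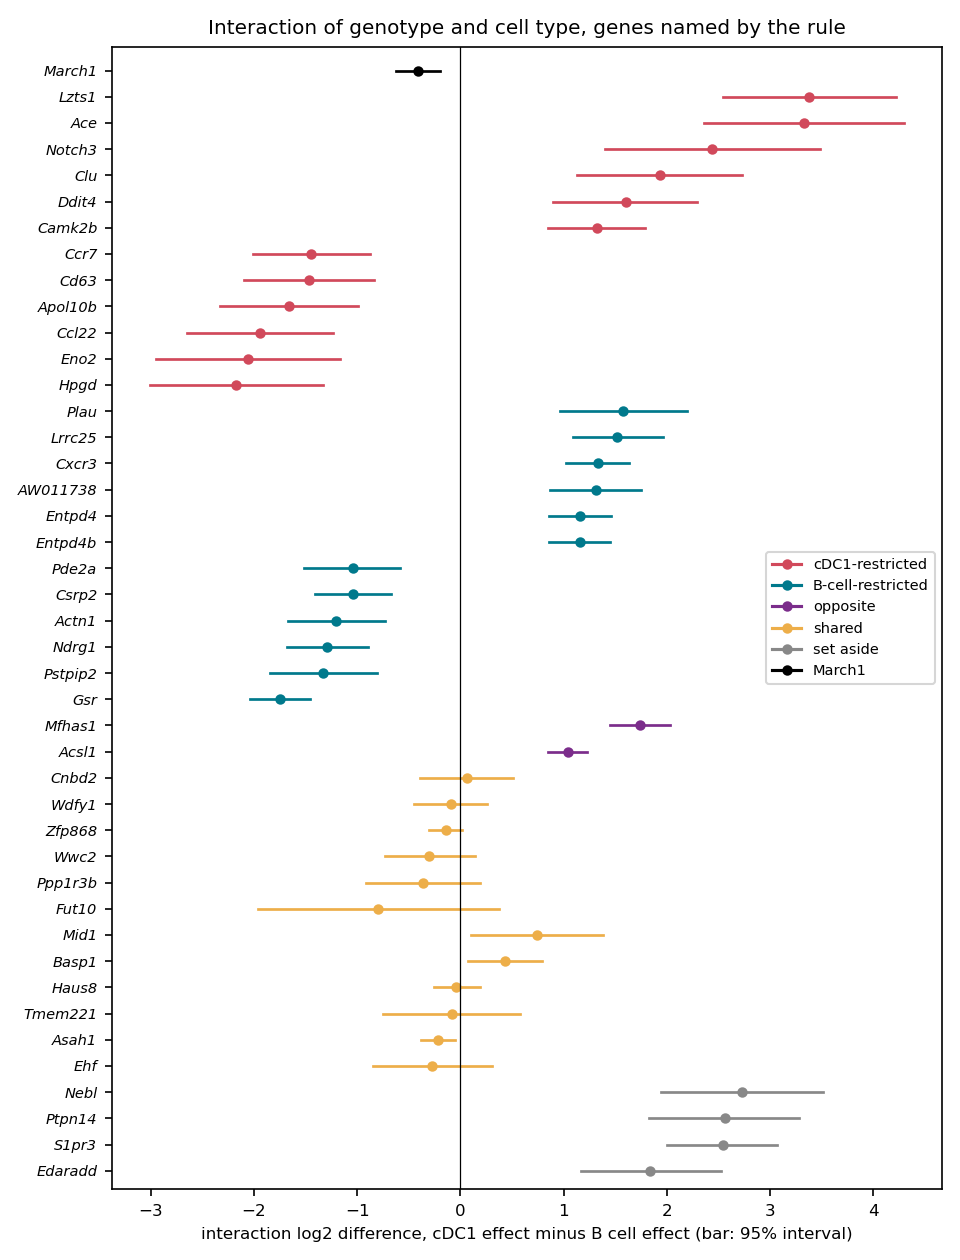
Interaction difference (log2, cDC1 effect minus B cell effect; points) with its 95% interval (bars) for the genes named by the rule, coloured by class. Intervals of the cDC1-restricted, B-cell-restricted and opposite genes lie on 1 side of 0. Those of the shared genes lie within 1 log2 unit of 0 except for Fut10 and Mid1, and the 4 set-aside genes all lie above 0.

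A larger share of genes was shared or called in the interaction around March1 than off chromosome 8, a description with no test. Among 318 kept genes within 20 Mb of March1, 10 were shared (3.14%) and 23 were called in the interaction (7.23%). Off chromosome 8, 65 of 16958 kept genes were shared (0.383%) and 333 were called in the interaction (1.96%). The calls extended further upstream than downstream: 20 to 40 Mb upstream, 5 of 81 genes were shared (6.17%) and 8 were called in the interaction (9.88%), while 20 to 40 Mb downstream none of 161 was shared and 4 were called in the interaction (2.48%). In a span chosen after the values were seen, from 35 Mb upstream to 7 Mb downstream, 14 of the 17 shared genes and 31 of the 40 interaction calls of chromosome 8 lay among 248 kept genes. Gsr, Ifi30, Mfhas1, Acsl1, Lzts1, Hpgd and Lrrc25, described above, lie in this span. Ccl22, at 28.3 Mb, does not.

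**Figure D5:**
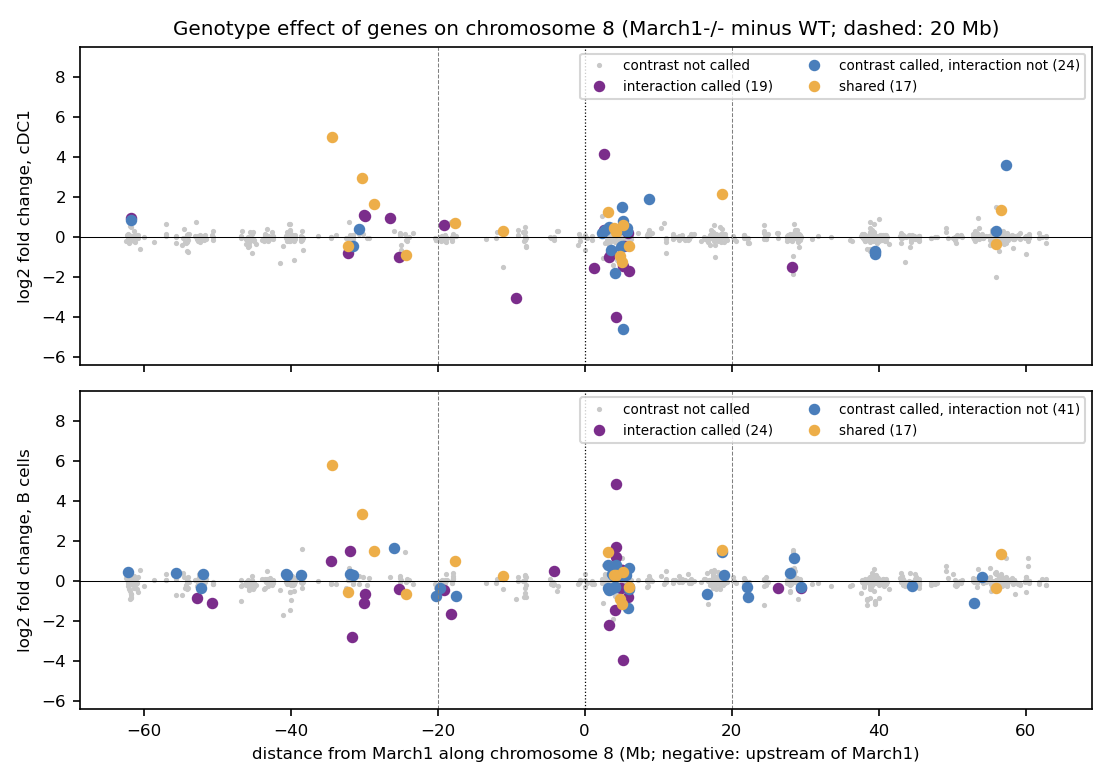
Log2 fold change of March1-/- against WT of the kept genes of chromosome 8 in cDC1 (top) and B cells (bottom) by distance from March1, which lies at 0; dashed lines mark 20 Mb. Shared genes (17) and genes called in the interaction gather from about 35 Mb upstream to 7 Mb downstream, with rises and falls side by side.

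Most called genes among those set aside rose in cDC1. Of the 817, 88 rose and 11 fell in March1-/- cDC1, with a median log2 fold change of 0.45. Their summed level in cDC1 libraries was 2.18% ± 0.17 of that in B cells in WT and 2.72% ± 0.248 in March1-/-, and a rise of 0.54 points adds 0.12 on the log2 scale to a gene at the 16-fold limit. S1pr3, Pou2af1 and Cr2 had higher WT B cell to WT cDC1 ratios (122.9, 129.0 and 176.1), at which the same rise would add 0.73, 0.76 and 0.96. The measured log2 changes of these 3 genes in cDC1 were 1.72, 1.47 and 1.6. The added values use the WT B cell level of each gene. S1pr3 and Cr2 were lower in March1-/- B cells, and at those levels the same rise would add less. The rise is that of a sum over the 817 genes, and the share of a single gene can differ from it. The added values are therefore not an upper limit, and the part of B cell RNA in these changes was not tested. S1pr3, a sphingosine-1-phosphate receptor of marginal zone B cells, averaged 0.969 ± 0.166 CPM in cDC1 of WT and 3.21 ± 0.315 CPM in those of March1-/-, against 119 ± 23.8 and 67.8 ± 12.2 CPM in B cells (interaction 2.54 ± 0.25). Cr2, the complement receptor CD21, was at 11.9 ± 1.28 and 36.2 ± 5.61 CPM in cDC1 and at 2095 ± 198.5 and 1399 ± 369 CPM in B cells (2.18 ± 0.21). Both therefore rose in cDC1 libraries and fell in B cells. The B cell groups of Cr2 overlapped, and its B cell call (edgeR adjusted p = 0.0192) held in 11 of the 16 fits that left out 1 library. The interaction difference was 2.73 ± 0.38 for Nebl, 2.56 ± 0.35 for Ptpn14 and 1.84 ± 0.32 for Edaradd. Of 15 pan B cell genes 11 also rose in cDC1, against 1.53% of all genes, among them Pou2af1, a B cell transcriptional coactivator, from 3.82 to 10.6 CPM (interaction 1.37 ± 0.12), with a B cell contrast that was not called. For these 6 interactions the highest edgeR adjusted p was 0.00201. Near the limit, the kept gene Galnt6 had a WT B cell to WT cDC1 ratio of 14.3 and an interaction difference of 1.02, and the set-aside gene Ephx1 had a ratio of 16.1 and a difference of -0.52.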

How the data were processed

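Whole-number counts per gene were deposited by the authors, in 1 table per library and lane and a table of the series; the series table equals the sum of the 2 lanes in all 566760 cells compared. The submitters' processing notes list the build GRCm38 (mm10) and, without versions, the tools STAR, Subread, limma, edgeR, FastQC and CASAVA. No source used here says whether counting used strand, so genes that overlap on opposite strands cannot be told apart. Of 28338 gene IDs, 28290 matched GENCODE M21 (GRCm38), and the rest held 0.0414% of counts.

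Counts of all 20 libraries in 5 groups were fitted in 1 model with edgeR 4.0.16 (R 4.3.3; TMM factors, filterByExpr by group, robust quasi-likelihood fit), which kept 18710 genes. The contrasts were March1-/- against WT in cDC1, in B cells, and their difference. The steps were tested on simulated data. Same-numbered cDC1 and B cell libraries of a genotype deviated together (correlation 0.17 to 0.53 in WT and 0.24 to 0.30 in March1-/-), so the numbers pair cDC1 and B cells within a genotype, as seen from the data and not from the labels. Across genotypes, same-numbered libraries correlated at 0.04 to 0.45 in cDC1 and 0.01 to 0.12 in B cells, and the Y-linked gene Ddx3y was highest in library 3 of all 4 groups. Fits with the block within genotype and across all groups were run beside the main one.

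Named genes were, for each class and direction, at most 6 protein-coding genes (4 for the set-aside genes) with the largest interaction difference (for shared effects, the largest smaller fold change). They had at least 5 CPM in 1 group, genotype groups that did not overlap and calls that held without each of 16 libraries. Names starting Gm or ending Rik were passed over, as were B-cell-restricted and opposite genes whose WT cDC1 mean was at least 16 times the WT B cell mean (Gcsam and Cdkn1a among them). March1 and list members called in the interaction were added. The members, the 30 gene lists and the naming rule were chosen with earlier results of these data known. Alternatives were other scaling factors, no filter, DESeq2 1.42.0, limma-voom (limma 3.58.1), the 4 groups alone, replicate blocks, left-out libraries, other set-aside limits and stricter thresholds. The 3-count level marks only the lowest levels, and counting error remains above it, most of all for genes with few counts. The CD11cint libraries entered the fit and no comparison. Some genes are not reported here.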

Additional observations from a re-analysis of the deposited data

Results flagged for a closer look

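The genotype effect differed between cDC1 and B cells, by the test of the difference itself (edgeR adjusted p under 0.05), for the genes below, given as the cDC1 effect minus the B cell effect on the log2 scale. For Gm3336 and B3gnt3 1 B cell group lies near or under 3 counts a library, so the fitted size depends on the prior count. Among genes called in cDC1 and not in B cells, the difference was 3.38 for Lzts1, 3.33 for Ace, 2.44 for Notch3, 1.93 for Clu, 1.60 for Ddit4, 1.32 for Camk2b, 1.23 for Pacsin1, 0.70 for Irf4 and 0.63 for Tcf4. Among genes called in cDC1 and not in B cells, the difference was -0.41 for March1, -0.50 for Irf1, -0.65 for Gbp5, -1.40 for Egr2, -1.45 for Ccr7, -1.47 for Cd63, -1.66 for Apol10b, -1.94 for Ccl22, -2.06 for Eno2 and -2.17 for Hpgd. Among genes called in B cells and not in cDC1, the difference was 1.58 for Plau, 1.52 for Lrrc25, 1.46 for Gcsam, 1.40 for S1pr2, 1.33 for Cxcr3, 1.31 for AW011738, 1.16 for Entpd4, 1.16 for Entpd4b, 1.14 for Asb2, 0.90 for Flt3, 0.76 for Cd9, 0.71 for Dph5, 0.63 for Pik3r4, 0.62 for Sema7a, 0.62 for Cd36, 0.54 for Pgk1 and 0.50 for Pkm. Among genes called in B cells and not in cDC1, the difference was -0.41 for H2-Ob, -0.47 for Irf7, -1.04 for Pde2a, -1.04 for Csrp2, -1.15 for Myb, -1.20 for Actn1, -1.29 for Ndrg1, -1.33 for Pstpip2, -1.42 for Ifi30 and -1.75 for Gsr. Among genes with opposite effects, the difference was 1.74 for Mfhas1 and 1.04 for Acsl1. Among genes with opposite effects, the difference was -0.74 for Il4i1, -1.36 for Icos, -1.51 for Egr3, -1.89 for Cdkn1a and -8.84 for Gm3336. Among genes that fell in both, the difference was 2.53 for B3gnt3 and 1.24 for Lpar2. Among genes that fell in both, the difference was -0.62 for Micu3. Among genes called in the interaction alone, the difference was 1.48 for Cd209a, 0.50 for Eno1 and 0.45 for Gapdh. Among genes called in the interaction alone, the difference was -0.95 for Ifi44. Among the genes set aside, the difference was 2.73 for Nebl, 2.56 for Ptpn14, 2.54 for S1pr3, 2.18 for Cr2, 1.84 for Edaradd and 1.37 for Pou2af1. 

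In 23 of the 312 groups of 4 libraries tested, 1 library lay far from the other 3 by the ratio of its gap to the range; chance gives about 1 group in 20. In March1-/- B cell library 1, Hpgd was at 0.426 CPM against 1.0 to 1.1 CPM in the others and Cnbd2 was at 204.8 CPM against 158.8 to 164.6 CPM in the others. In March1-/- B cell library 2, Ptpn14 was at 75 CPM against 49.0 to 52.3 CPM in the others. In March1-/- B cell library 4, Eno2 was at 1.12 CPM against 0.551 to 0.631 CPM in the others, Pacsin1 was at 29.1 CPM against 19.7 to 21.0 CPM in the others and Micu3 was at 5.76 CPM against 6.36 to 6.45 CPM in the others. In March1-/- cDC1 library 3, Sema7a was at 21.7 CPM against 18.1 to 18.5 CPM in the others, Gbp5 was at 25.2 CPM against 16.5 to 17.4 CPM in the others and Cdkn1a was at 21 CPM against 12.0 to 13.1 CPM in the others. In March1-/- cDC1 library 4, Gapdh was at 327.7 CPM against 378.0 to 387.3 CPM in the others and H2-Ob was at 446 CPM against 385.4 to 388.7 CPM in the others. In WT B cell library 1, H2-Ob was at 571.9 CPM against 647.5 to 651.7 CPM in the others. In WT B cell library 2, S1pr2 was at 8.57 CPM against 6.5 to 6.79 CPM in the others. In WT B cell library 3, Csrp2 was at 3.26 CPM against 3.82 to 3.92 CPM in the others. In WT B cell library 4, Gm3336 was at 0.0316 CPM against 0.0 to 0.0 CPM in the others. In WT cDC1 library 1, Lzts1 was at 0.92 CPM against 0.529 to 0.593 CPM in the others and Gbp5 was at 25 CPM against 31.4 to 32.2 CPM in the others. In WT cDC1 library 2, Mfhas1 was at 14.4 CPM against 16.4 to 16.7 CPM in the others. In WT cDC1 library 4, Ace was at 5.7 CPM against 3.46 to 3.79 CPM in the others, Eno2 was at 12.7 CPM against 6.48 to 7.14 CPM in the others, Ccr7 was at 159.5 CPM against 103.6 to 110.7 CPM in the others, Egr3 was at 52.6 CPM against 29.5 to 32.1 CPM in the others and Flt3 was at 808 CPM against 783.6 to 786.5 CPM in the others.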

How the results depend on the processing

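None of the 106 gene results recomputed (82 for the block within genotype) reversed direction under an alternative; other genes were not followed. The count of 374 interaction calls moved by over 1.5 times with DESeq2 (598), with the replicate number as a block across all groups (591), with the block within genotype (871), without replicate 1 of both March1-/- groups (189), at an adjusted p under 0.01 (153) and at a log2 difference of at least 1 (127). The 82 shared effects became 51, 42 and 30 under the last 3 of these. The 103 cDC1-restricted effects became 58, 50 and 48 under those 3, and 61 among genes at 5 CPM or more in both cell types, an alternative chosen after seeing the data. The 201 B-cell-restricted effects became 319 with DESeq2, 320 with the block across all groups, and 108, 88 and 52 under those 3. The 14 opposite effects became 28 with DESeq2, 30 with the block across all groups, 7 without replicate 1 of both groups, 4 at the stricter p, 23 with no gene set aside and 6 among genes at 5 CPM or more in both. The cause was not tested, apart from the fewer genes or stricter limits of some settings. Leaving out 1 library at a time gave 261 to 485 interaction calls, 59 to 81 shared, 74 to 127 cDC1-restricted, 135 to 271 B-cell-restricted and 9 to 18 opposite effects, the 9 without WT cDC1 replicate 3. Without replicate 1 of both March1-/- groups, 17 of the 66 genes described with an interaction call lost it, at an edgeR adjusted p of 0.0628 to 0.141: March1, Cd209a, Cd36, Egr2, Eno1, Flt3, Gapdh, Gbp5, H2-Ob, Ifi44, Irf1, Irf7, Myb, S1pr2, Sema7a, Micu3 and B3gnt3. Neither replicate block removed the call of any gene recomputed. The block within genotype gives the interaction alone, so shared effects and the other classes were not recounted under it. Depth limits genes near 3 counts a library, such as Fut10, Gm3336 and B3gnt3.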
